A study of Caenorhabditis elegans with 6 samples.

Results

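The regions described here are the places on chromosome II, an autosome of Caenorhabditis elegans, that were bound by UNC-55::GFP in hermaphrodites at the second larval stage (L2). They were taken as every region on II in the list that the authors made for the whole series, and they number 1474 of 8836. Binding was measured by ChIP-seq, in which crosslinked chromatin is precipitated with an antibody (here against GFP) and the recovered DNA is sequenced. The series has 3 ChIP samples for UNC-55::GFP, and 3 inputs, which are chromatin left unprecipitated. All came from strain NC1639, which carries the integrated transgene wdIs49 on chromosome III with the genotype pttr39::UNC-55a::GFP and dpy-20+. Replicates 1, 2 and 3 of the ChIP had a list of their own, with 1186 of 6805, 850 of 4909 and 532 of 2803 regions on II. No list of the inputs was analysed here, so no background level can be set beside these regions. The transgene drives the UNC-55a isoform from the ttr-39 promoter, the labels report ectopic expression in some cells besides the GABA motor neurons of the ventral cord, and the line had not been outcrossed. Chromatin came from whole worms, so the cells in which a region was bound are not known.

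UNC-55 is the nuclear receptor of the COUP-TF family in this worm. It is known for keeping the VD class of GABA motor neurons from rewiring their synapses as the DD class does during larval life. Worm autosomes are not uniform along their length. Their central part is known for low recombination and for many conserved and broadly used genes, while the arms recombine more and hold more repeats and young gene families. The centre of II was taken as the 7.14 Mb that follow its first 4.88 Mb on the WormBase WS220 genome, and regions were placed by their midpoint. The stretches on either side are the left and the right arm. All positions below are on II in that genome, counted from 1.

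UNC-55::GFP regions were denser in the centre of II than in its arms in every list. In the combined list the centre held 876 regions, or 123 per Mb, against 598, or 73.6 per Mb, in the arms. The density in the centre was 101, 76.5 and 46.9 regions per Mb in replicates 1, 2 and 3, and in the arms it was 57.0, 37.4 and 24.3. The centre was thus 1.92 ± 0.13 times as dense as the arms (SD, n = 3), and it was the denser in 3 of 3 replicates. The difference averaged 35.3 ± 11.3 regions per Mb (SD, n = 3), with an exact two-sided sign-flip permutation p = 0.25 and the same value after Benjamini-Hochberg adjustment over the 3 tests made. With 3 replicates that is the smallest p the test can give, so no comparison of this kind can reach 0.05 here. Nothing in the labels states that the replicates were separate cultures, so their spread, and with it the p-values, may be technical. The centre makes up 46.8% of the length of II and held 59.4% of its combined regions (exact 95% interval 56.9 to 61.9%). It held 61.0%, 64.2% and 63.0% of those in replicates 1, 2 and 3.

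**Figure D1:**
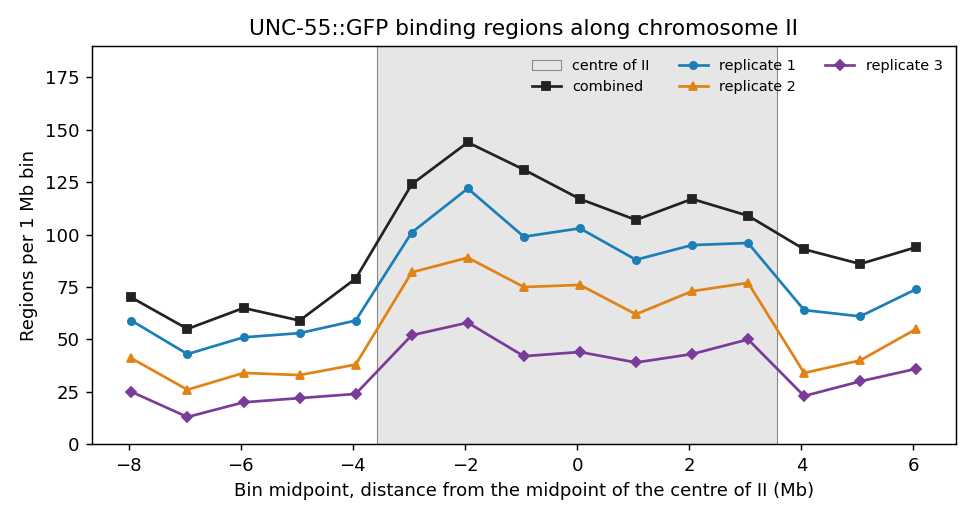
Number of UNC-55::GFP regions in each full 1 Mb bin of chromosome II (y axis) against the distance of the bin from the midpoint of the centre in Mb (x axis), with 1 line for each list and the centre shaded. In the combined list the bins inside the centre hold 107 to 144 regions and those inside the arms 55 to 94.

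Density was higher just inside than just outside both borders of the centre in every list. In the 500 kb (0.5 Mb) inside the left border there were 79 combined regions, against 42 in the 0.5 Mb outside it. The same windows held 63 inside against 31 outside in replicate 1, 47 against 22 in replicate 2 and 28 against 14 in replicate 3. The ratio at the left border was thus 1.88 to 2.14 in the 4 lists in these windows. It was smaller with windows of 1 Mb, at 1.68 in the combined list and 1.68, 1.98 and 1.92 in replicates 1, 2 and 3. The 1 Mb inside held 124 combined regions, the 79 of its first 0.5 Mb included, and the 1 Mb outside held 74. At the right border the combined list changed less, with 63 regions inside and 46 outside. There the windows held 52 inside against 31 outside in replicate 1, 38 against 18 in replicate 2 and 31 against 11 in replicate 3. The ratio at the right border was thus 1.37 in the combined list and 1.68, 2.11 and 2.82 in replicates 1, 2 and 3. With windows of 1 Mb it was 1.31 in the combined list and 1.58, 2.39 and 2.36 in the replicates. The members nearest the borders were poorly scored. At the left border they were the region at 4881840 to 4882229 inside and 4878006 to 4878335 outside. At the right border they were 12019239 to 12019326 inside and 12020310 to 12020327 outside. Of these, only the first overlapped a region of any replicate.

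The arms differed from each other. The right arm carried 88.8 combined regions per Mb and the left arm 63.5. In replicates 1, 2 and 3 the right arm carried 65.4, 43.5 and 30.2 regions per Mb and the left arm 51.4, 33.4 and 20.3, so the right arm was the denser in each of the 4 lists. The sparsest full 1 Mb bin of II lay in the left arm from 1 to 2 Mb, with 55 combined regions and 43, 26 and 13 in replicates 1, 2 and 3. The densest lay in the centre from 6 to 7 Mb, with 144 combined regions and 122, 89 and 58 in the replicates. The same bins were the sparsest and the densest in all 4 lists. The longest stretch of II with no combined region was 171 kb, between 1861738 and 2032363, and the next longest, of 144 kb, began at 1663887. In each of the 4 lists the 3 longest empty stretches of II lay in the left arm, and in replicate 3 the longest reached 381 kb, between 1438529 and 1819930.

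**Figure D2:**
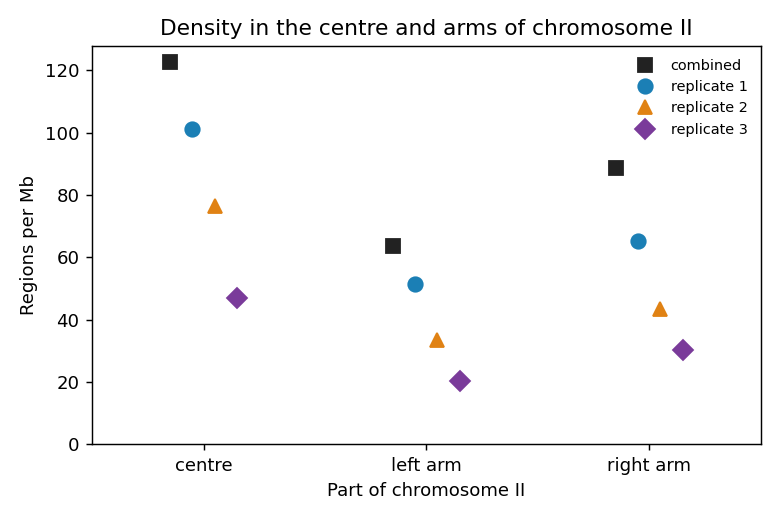
Density of UNC-55::GFP regions (regions per Mb, y axis) in the centre, the left arm and the right arm of chromosome II (x axis), with 1 point for each list. In every list the centre is highest and the left arm lowest, at 123, 63.5 and 88.8 regions per Mb for centre, left arm and right arm in the combined list.

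Against the other 5 chromosomes, II was the denser on average in every list, by less than the contrast within it. It carried 96.6 combined regions per Mb, against 86.8 on the others, and 77.7, 55.7 and 34.9 in replicates 1, 2 and 3, against 66.2, 47.9 and 26.8. The difference was 9.12 ± 2.02 regions per Mb (SD, n = 3, exact sign-flip permutation p = 0.25, adjusted p = 0.25 over 3 tests). II held 16.7% of combined regions (exact 95% interval 15.9 to 17.5%) and 17.9 ± 0.93% of replicate regions (SD, n = 3), against 15.3% of the sequence spanned. Chromosome IV moved with this contrast, since it held 13.8% of combined regions but 7.21% of those of replicate 3, and without it the other 4 chromosomes carried 91.2 combined regions per Mb. II was not the densest chromosome, since III carried 108 combined regions per Mb and I carried 96.8. X followed II at 94.3, while V carried 73.2 and IV 69.7. In each replicate III was denser than II, and I and X were less dense. The crowding toward the middle was not particular to II either. The central 50% of its span held 59.8% of its combined regions, while that of III held 60.1%, I 57.8%, IV 53.6%, V 64.6% and X 48.0%.

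The combined regions of II were next sorted by how many replicates held an overlapping region (at least 1 bp). All 3 replicates held 506 of them (34.3%, exact 95% interval 31.9 to 36.8%), where the share over all chromosomes was 29.5%. On the other 5 chromosomes it was 28.5%, and 31.2% when IV was left out. A further 304 were found in 2 replicates (20.6%) and 353 in 1 (23.9%), beside 23.4% and 23.1% on the other 5 chromosomes. The 311 found in none made up 21.1%, beside 24.4% over all chromosomes. Most regions missed by 1 replicate were missed by replicate 3, the shortest list: 290 regions of II were in replicates 1 and 2 and not in 3, while 13 lacked only replicate 2 and 1 lacked only replicate 1. Without replicate 3, 54.0% of the combined regions of II were found in both of the others.

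Regions of II found in all 3 replicates were broader and better scored. They had a median width of 552 bp. Regions held by 2 replicates had 441 bp, those held by 1 had 355 bp and those held by none had 227 bp. Their median rank was 1498 of 8836, against 3873, 5977 and 7661 for those in 2, 1 and no replicate. The order was the same on the other 5 chromosomes. There the median widths were 607, 480, 382 and 268 bp for regions in 3, 2, 1 and no replicate. The median ranks were 1338, 3518, 5654 and 7640. The rank is that of the authors' own caller value and orders regions within a list only. Of the 381 regions of II in the best-scored 25% of the combined list, 365 were found in all 3 replicates, or 95.8%, beside 86.9% on the other 5 chromosomes and 92.4% on those without IV. Of the 365 in the last 25% 0 were, which allows a share of up to 1.01% (exact interval). On the other 5 chromosomes that share was 0.11%. The best-scored region of II found in no replicate lay at 11258525 to 11258804, with rank 4083. The last-ranked one found in all 3 lay at 14644333 to 14644700, in the right arm, with rank 5036 in the combined list and 6254, 4192 and 2716 in replicates 1, 2 and 3. The combined list carries the name of the same experiment, so it is not independent of the replicate lists.

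**Figure D3:**
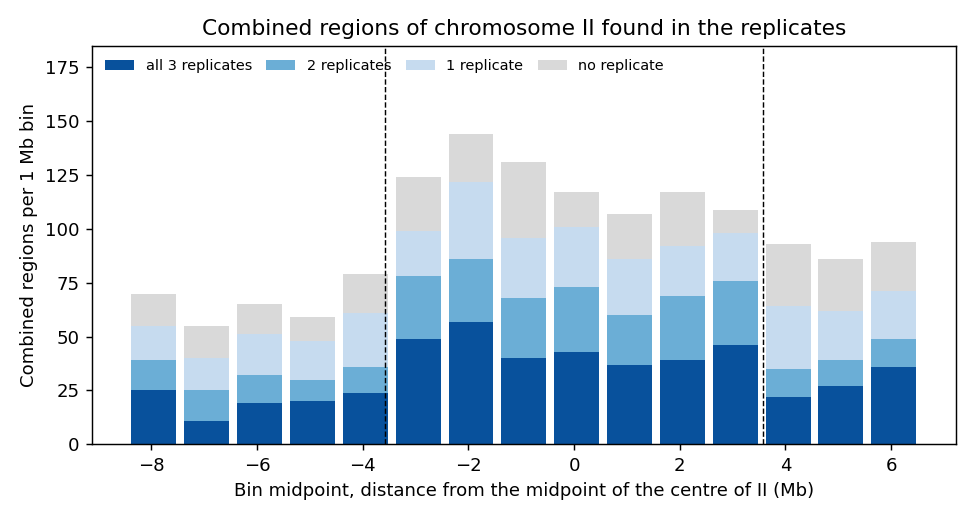
Combined regions per full 1 Mb bin of chromosome II (y axis), stacked by how many replicates hold an overlapping region, against the distance of the bin from the midpoint of the centre in Mb (x axis), with dashed lines at the borders of the centre. Bins inside the centre hold 37 to 57 regions found in all 3 replicates, and the bin just past the right border holds 22.

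Of the centre's combined regions 36.3% were found in all 3 replicates, against 31.4% in the arms, a difference of 4.86 percentage points (95% Newcombe interval -0.08 to 9.70). At like rank the shares were close. In the best-scored 25% of the combined list they were 95.7% in the centre and 95.9% in the arms. In the next 25% they were 37.7% and 36.6%, in the third 0.47% and 1.39%, and in the last 0 in both. That last 25% took in 20.7% of the centre's regions and 30.8% of those in the arms. Between centre and arms the contrast was wider for replicate 2 alone, with 60.7% of the combined regions in the centre found in it (exact 95% interval 57.4 to 64.0%) and 48.8% in the arms (44.8 to 52.9%), beside 53.4% over all chromosomes. Replicate 1 held 79.0% in the centre and 73.6% in the arms, with 73.6% over all chromosomes. Replicate 3 held 37.6% in the centre and 32.4% in the arms, with 30.5% over all chromosomes. The bin just past the right border, from 12 to 13 Mb, stood out in this. It held 93 combined regions and 64, 34 and 23 in replicates 1, 2 and 3, where the bin before it held 109 combined regions and 96, 77 and 50. Its 29 regions found in no replicate were exceeded in 1 other bin, from 7 to 8 Mb, which held 35 among 131. Intervals for shares cover counting error only, and neighbouring regions are not independent.

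Single replicates found each other's regions on II more often when the list searched was the longer one. Of the regions of replicate 3 on II, 99.6% overlapped a region of replicate 1 and 97.0% one of replicate 2, and of those of replicate 2, 96.0% overlapped one of replicate 1. Over all chromosomes these shares were 99.3%, 96.8% and 96%. In the other direction, 68.3% of the regions of replicate 1 on II were found in replicate 2 and 44.2% in replicate 3, where the shares over all chromosomes were 68.9% and 40.4%. Of the regions of replicate 2 on II, 60.7% were found in replicate 3, beside 54.9% over all chromosomes. Of the regions of replicate 1 in the centre, 72.5% were found in replicate 2 (exact 95% interval 69.1 to 75.7%), against 61.8% of those in the arms (57.2 to 66.2%). For regions of replicate 2 found in replicate 3 the order was the other way, at 59.2% in the centre (54.9 to 63.3%) and 63.5% in the arms (57.8 to 68.9%). Where regions of II matched, their ranks in both lists went together, with Spearman's rho of 0.84 over 816 pairs for replicates 2 and 1, 0.77 over 530 for 3 and 1 and 0.75 over 516 for 3 and 2. These are descriptions across regions that share libraries, and no test was made.

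Regions on II were of about the same size as elsewhere. The combined regions had a median width of 409 bp (quartiles 303 and 602 bp), against 429 bp on the other chromosomes, and 390 ± 15 bp in the replicates (SD, n = 3), against 417 ± 6 bp. Widths of 1500 bp or more were reached by 45 combined regions of II (3.05%, exact 95% interval 2.24 to 4.06%), beside 3.42% over all chromosomes, and 31 of the 45 lay in the centre. Median widths were lower in the centre than in the arms in 3 of 3 replicates, by 16.5 ± 12.8 bp on average (SD, n = 3, exact sign-flip permutation p = 0.25, adjusted p = 0.25 over 3 tests). The order did not hold under other settings. The centre was wider by 17.2 bp on average in the better-scored 50% of each list (exact permutation p = 0.5) and by 5.83 bp with the central 50% of the span as the centre (exact permutation p = 0.75). Without the bin from 11 to 12 Mb, a setting chosen after the data were seen, it was wider by 4.0 bp (exact permutation p = 1).

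In the bin of II from 11 to 12 Mb, the regions were narrow in every list. Median widths there were 280 bp for combined regions and 272, 282 and 288 bp in replicates 1, 2 and 3. The medians of the other bins of II with at least 20 regions were 380 to 485 bp in the combined list, 378 to 462 bp in replicate 1, 387 to 458 bp in replicate 2 and 335 to 432 bp in replicate 3. No region of this bin reached 1500 bp in any list. Yet it was well scored, with 24 of its 109 combined regions among the best 1000 of the list, a share of 22.0%, against 9.91% in the rest of the centre and 12.2% in the arms. It also had the highest share of regions found in all 3 replicates of any full bin of II, at 42.2% (exact 95% interval 32.8 to 52.0%).

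**Figure D4:**
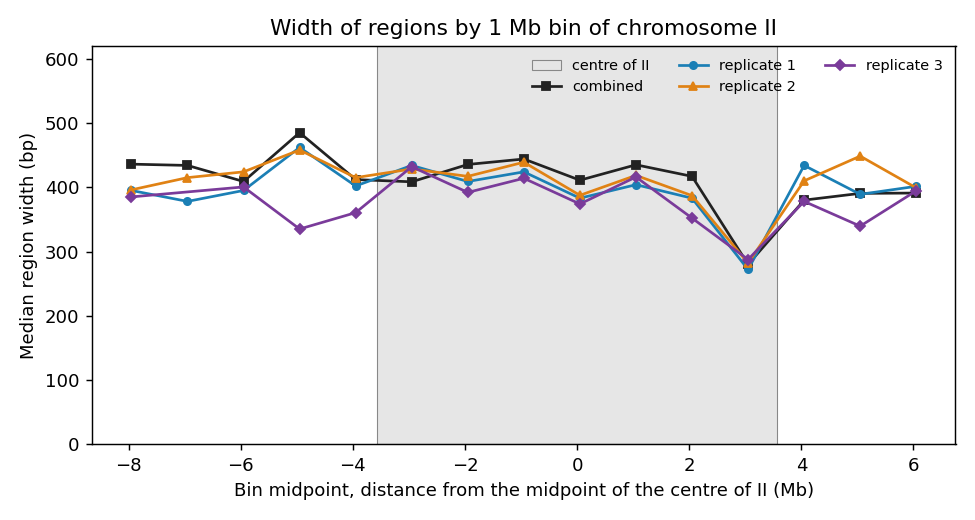
Median width of regions in bp (y axis) in each full 1 Mb bin of chromosome II with at least 20 regions, against the distance of the bin from the midpoint of the centre in Mb (x axis), with 1 line for each list and the centre shaded. The bin from 11 to 12 Mb falls to 272 to 288 bp in all 4 lists.

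The same bin held the only regions of II whose edges were nearly identical in all 3 replicates. Among the 472 regions of II with exactly 1 overlapping region in each replicate, the start varied by a median of 72.5 bp between replicates and the end by the same. In 2 of them both edges fell within 10 bp, and both lay in this bin. The first spanned 11027522 to 11028294, and its start and end each varied by 1 bp. It was the best-scored region of II in each replicate, at rank 13, 8 and 6 in replicates 1, 2 and 3, but rank 357 in the combined list. The second spanned 11345556 to 11345880, with starts within 9 bp and ends within 4 bp, and ranked 629, 455 and 403 in the replicates and 622 in the combined list. Over all chromosomes 12 regions had such edges. Of these, 9 lay in 4 bins, which were the 4 whose median combined width was under 300 bp among 101 bins with at least 20 regions. No input value was set beside these regions, so whether their width, edges and scores reflect binding was not tested. Without this bin, II carried 95.7 combined regions per Mb, their median width was 418 bp and 33.7% of them were found in all 3 replicates.

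Of the 10 best-scored combined regions of II, 9 lay in the centre, and 5 of the 10 fell within 511 kb of it, between 5334386 and 5845246. All 10 were found in all 3 replicates. The first spanned 5543202 to 5544466, 1265 bp, and ranked 15 of all combined regions. Replicates 1, 2 and 3 placed it at 20, 22 and 21. It was a single region in each of them. The second, at 5334386 to 5339144, was 4759 bp wide and ranked 32 in the combined list and 40, 27 and 39 in the replicates. The third was the widest region of II. It covered 6419 bp from 10546064 to 10552482 and ranked 36, but the replicates split it into 3, 4 and 3 regions whose best ranks were 153, 431 and 493. A region and its pieces are scored separately in each list.

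The region from 5660759 to 5662361 ranked 37 in the combined list and 50, 40 and 43 in replicates 1, 2 and 3. The narrowest of the 10, with 786 bp from 5844461 to 5845246, ranked 38 there and 33, 25 and 31 in the replicates. The region from 11749192 to 11750197 ranked 43 in the combined list, and 36, 71 and 42 in the replicates. These 3 stayed within the best 100 of every list. The seventh, from 5723570 to 5725573, ranked 53 and was held as 2, 2 and 1 regions in replicates 1, 2 and 3, with best ranks of 128, 61 and 100. The regions from 9059904 to 9062851 and from 6346311 to 6349089 ranked 79 and 104 in the combined list. In replicates 1, 2 and 3 the best rank was 62, 164 and 219 for the first of this pair and 123, 537 and 198 for the other. The tenth was the best of the right arm, from 14039512 to 14040869, at rank 106 of all combined regions and at 88, 136 and 70 in the replicates. The best of the left arm, from 2747994 to 2749003, came later, at rank 179 and at 186, 182 and 280 in the replicates. The third widest region of II was also in the left arm, from 3954864 to 3959341, and ranked 255, but its best replicate ranks were 1216, 1481 and 709.

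**Figure D5:**
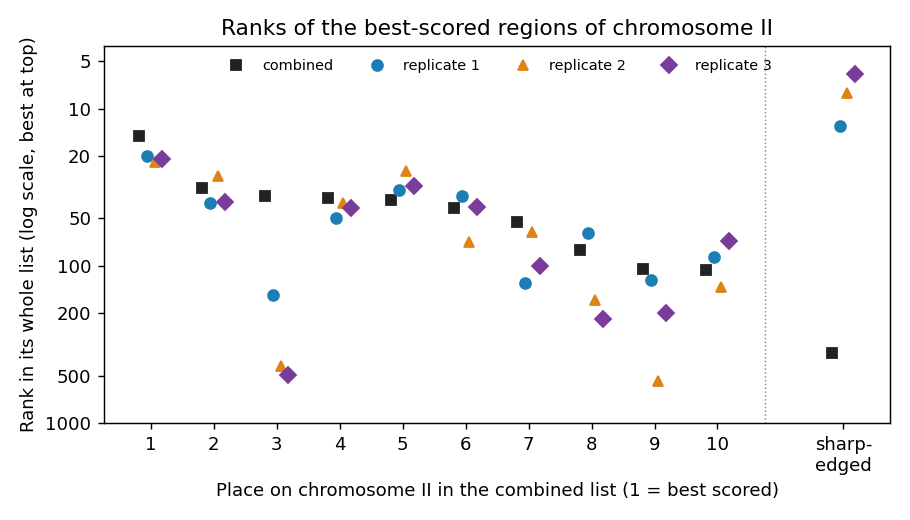
Rank in the whole list (log scale, best at the top, y axis) of the 10 best-scored combined regions of chromosome II (x axis, in order of the combined list), and, at the right, of the sharp-edged region at 11027522, with 1 point for each list. The first region ranks 15 to 22 in all 4 lists, while the third ranks 36 in the combined list and 153 to 493 in the replicates.

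The share of II was lower among the very best regions of the combined list than in the whole list. It held 8 of the best 100 in the combined list (exact 95% interval 3.52 to 15.2%), although its share of the whole list was 16.7%, and 9, 12 and 14 of the best 100 in replicates 1, 2 and 3, where its shares were 17.4%, 17.3% and 19.0%. The intervals of replicates 2 and 3, 6.36 to 20.0% and 7.87 to 22.4%, include those shares. That of replicate 1, 4.20 to 16.4%, lies below its share, as does that of the combined list. Among the best 500 its count was 80 in the combined list and 84, 89 and 90 in the replicates, so its share there was 16.0% and 16.8%, 17.8% and 18.0%. Of the 7 regions of II that were in the best 100 of all 3 replicates, 2 were outside the combined best 100. Over all chromosomes this held for 11 of 60 such regions. The 2 on II were the sharp-edged one at 11027522 and the region from 10563147 to 10563902. The latter ranked 167 in the combined list and 61, 29 and 38 in the replicates. Within II, the centre held 61.3% of its 80 regions among the best 500 and 60.7% of its 356 among the best 2000, close to its share of all regions of II. Over the whole combined list the centre ranked better, at a median of 4044 against 4964 in the arms. The order was the same in replicate 1, at 3338 against 3498. It was the other way in replicate 2, at 2307 against 2115, and in replicate 3, at 1428 against 1303.

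Neighbouring regions on II often lay close together. The median distance between the end of a combined region and the start of the next was 3995 bp on II, against 4648 bp on the other chromosomes. In replicates 1, 2 and 3 it was 5392, 8668 and 15802 bp on II, against 6678, 10346 and 19183 bp on the others. No neighbours on II were nearer than 201 bp in any list. At most 2 kb separated 530 of the 1473 combined neighbours on II (36.0%, exact 95% interval 33.5 to 38.5%), beside 32.5% over all chromosomes. In replicates 1, 2 and 3 the share was 29.1%, 21.8% and 11.9% on II, against 24.8%, 18.4% and 11.7% on the other chromosomes, so II and the others differed least in replicate 3. Closeness of neighbours was not particular to II, since the share was 35.8% on V in the combined list, and in replicate 3 it was 13.01% on III and 14.3% on V. Within II it was 37.6% in the centre and 33.6% in the arms of the combined list. In replicates 1, 2 and 3 it was 29.9%, 22.75% and 13.8% in the centre and 28.0%, 20.2% and 8.72% in the arms. The left arm alone was above the centre in replicates 1 and 2, at 33.2% and 22.84%, and below it in replicate 3, at 10.2%. Of the 829 regions of II with such a neighbour, 29.7% were found in all 3 replicates (exact 95% interval 26.6 to 32.9%), against 40.3% of the 645 without one (36.5 to 44.2%). Those with a neighbour were also ranked lower, at a median of 4727 against 3909, and the part of the rank in this contrast was not tested. On the other 5 chromosomes the shares were 26.9% with such a neighbour and 30.2% without.

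Runs of at least 3 combined regions, each at most 2 kb from the next, numbered 129 on II. They took in 489 of its regions (33.2%, exact 95% interval 30.8 to 35.6%), beside 27.4% over all chromosomes. Of the 129 runs, 80 lay in the centre, which held 59.4% of the combined regions of II. The longest had 8 members each and were in the centre. One spanned 5325172 to 5341346, 16.2 kb that include the second-best region of II, and 5 of its members were found in all 3 replicates. The other spanned 8784274 to 8800093, 15.8 kb, with 4 members in all 3 replicates and a best rank of 160. Fewer regions were in runs in the shorter lists: 23.8%, 14.2% and 6.95% of the regions of II were in runs in replicates 1, 2 and 3, against 17.9%, 11.5% and 5.99% on the other chromosomes. The centre held 46 of 76 runs on II in replicate 1, 24 of 35 in replicate 2 and 10 of 11 in replicate 3. Its share of the regions of II in those lists was 61.0%, 64.2% and 63.0%. The share of regions in runs was not highest in the centre in every list. In replicate 1 it was 24.8% in the centre, 29.9% in the left arm and 13.2% in the right arm. In the same order it was 15.2%, 16.0% and 8.51% in replicate 2, and 10.1%, 3.03% and 0% in replicate 3.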

How the data were processed

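UNC-55::GFP ChIP-seq and input samples were grouped and numbered by their titles (the title of the series gives a different protein and age, and was not followed). Per the file headers, PeakSeq was the authors' caller and WormBase WS220 the genome. Not given in the sources used here are the caller's version and thresholds, the aligner and how the combined list pooled the replicates. Each deposited list gives start, end and the caller's p-value or q-value (at most 0.001; whether adjusted is not stated). Worms were grown at 20 °C and fixed with 2% formaldehyde, per the labels' protocols. Without read counts in these files the depth per sample is unknown.

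Regions were ranked within a list by caller value, then by region number. Density is per Mb from position 1 to the end of the last region in any list. Overlap needs 1 bp unless stated, and had 0 differences from bedtools 2.31.1; the code was also tested on simulated lists. Shares carry exact (Clopper-Pearson) 95% intervals. Differences within replicates used an exact two-sided sign-flip permutation test over 3 replicates, with a threshold of 0.05. Regions named are the 10 best-scored on II, the best of each arm and the centre, the 3 widest, the best found in no replicate and the last found in all 3, with the widest gap and the densest and sparsest bins. The sharp-edged regions, the longest runs, the bin from 12 to 13 Mb and the bin from 11 to 12 Mb were chosen after their values were seen, and the members and comparisons were chosen with earlier results of these data known. The gene table used here is on WBcel235, another build than WS220, so no gene or sequence is given for a region. The work used SciPy 1.17.1, pandas 2.3.3, numpy 2.4.6 and matplotlib 3.10.9 under Python 3.11.15.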

Additional observations from a re-analysis of the deposited data

How the results depend on the processing

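Of 90 values recomputed under other settings, 62 were counted as the same, 25 as moved and 3 as reversed. For the 3 tested differences, the same meant only that the sign held and p stayed above the threshold. No spread was checked for these, and p could not fall below the threshold with so few replicates. The density differences below were so counted, although some moved by more than their SD between replicates. Other values counted as the same stayed within the allowed spread. All 3 reversals were of the width in the centre against the arms, at -16.5 bp as reported: it was 17.2 bp in the better-scored 50% of each list, 5.83 bp with the central 50% of the span as the centre and 4.0 bp without II from 11 to 12 Mb, and between -23.3 and -10.5 bp when 1 replicate was left out. The cause was not tested. The density of the centre against its arms kept its sign in every setting run, as did that of II against the other chromosomes. Their sizes changed. The centre's excess was lowest in the better-scored 50% of each list, at 17.9 regions per Mb, and highest without replicate 3, at 41.7, against 35.3 as reported. The excess of II was lowest without chromosome IV, at 5.04, and highest against other autosomes only, at 10.1, against 9.12 as reported. Lists cut to fewer regions give lower densities by construction. With the better-scored 50% of the combined list, II held 751 regions, their median width was 530 bp and 67.0% were found in all 3 replicates, fewer regions by construction. Merged replicate regions gave a share of II of 17.5%, a median width of 428 bp and 30.5% of neighbours within 2 kb. The share of II was 19.3% without chromosome IV and 15.6% without II from 11 to 12 Mb, both by construction. The densest bin had 89 and 58 regions in replicates 2 and 3. Neighbours within 1 kb and 5 kb made up 22.5% and 54.99%. Regions found in all 3 replicates were 27.2% with a reciprocal overlap of at least 50% and 29.1% with midpoints within 200 bp. When 1 replicate was left out this share lay between 34.4% and 54.0%, and by construction it cannot fall. The difference between centre and arms then lay between 4.70 and 11.5 percentage points. Both were highest without replicate 3. For replicates 2 in 1, 3 in 1 and 3 in 2, overlap on II was 87.9%, 87.6% and 87.4% with the reciprocal overlap, 88.2%, 91.5% and 89.8% with midpoints, and 86.4%, 82.0% and 82.5% with 2803 best-scored regions from each replicate. No paired analysis was possible because the groups that share replicate numbers are ChIP and input, and no input list was analysed here (contrasts between zones and chromosomes were taken within each replicate). The depth is unknown, so replicate list lengths cannot be set against it.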

Other observations

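With the best 2803 regions taken from each replicate, the length of the shortest list, II held 488, 509 and 532 of them in replicates 1, 2 and 3, and the centre of II was 1.86, 1.98 and 1.93 times as dense as its arms. The combined list held an overlapping region for all 532 regions of replicate 3 on II, for 849 of 850 in replicate 2 and for 1169 of 1186 in replicate 1. The 17 regions of replicate 1 missing from the combined list had a median width of 155 bp and a best rank of 5896 in replicate 1. Of these, 5 lay in the centre. The run of 7 combined regions from 12017219 to 12024068, across the right border of the centre, had no member found in all 3 replicates and 3 found in none, with a best rank of 3527.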
